A study of Homo sapiens with 6 samples.

Results

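The genes described here are 57 developmental transcription factor genes of the homeobox superfamily outside the HOX clusters. They were chosen by gene symbol, as typical Polycomb targets, with earlier results of these data known. Each of the 57 symbols matched 1 of the 58884 Ensembl gene rows of the table. RNA-seq libraries built with a TruSeq RNA kit were compared between DLD1 parental cells, a human colorectal cancer cell line that carries a helical domain mutation of PIK3CA, and DLD1 p85β K477A/R478A mutant cells (p85β KR-AA), with 3 libraries each. The mutant cells carry alanine substitutions of 2 basic residues in the nuclear localization sequence of p85β, introduced into the endogenous PIK3R2 locus by CRISPR/Cas9, and no drug treatment is given for any library. The question of the comparison was whether p85β in the nucleus affects the levels of RNAs. The study describes the mutant cells as selected clones, and gene counts cannot check a point mutation. The labels do not name a clone for each library, and the source field of mutant replicates 2 and 3 reads K477A/R479A and K477A/R480A where their titles and genotypes read K477A/R478A. Nothing in the labels says that the 3 libraries of a group came from separate cultures, so p-values measure the spread between these libraries, which may be technical.

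Homeobox genes encode transcription factors that bind DNA through a homeodomain and fix the identity of regions and cell types in the embryo. Most are silent outside the tissues in which they act, and many are held so by Polycomb repressive complex 2 (PRC2), in which EZH1 or EZH2 trimethylates a lysine of the histone H3 tail at CpG-rich promoters. In the intestinal lineage CDX2 and, toward the duodenum, PDX1 are the homeobox factors best known for setting identity, whereas most of the genes described here act in the nervous system, muscle, skeleton, kidney or endocrine glands.

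Libraries held 20301396 to 26712816 estimated counts. Levels are given in counts-per-million (CPM), with the library total scaled by the trimmed mean of M-values (TMM), as mean ± SD with n = 3 libraries. The TMM factors were 0.677 to 0.777 in parental and 1.35 to 1.41 in mutant libraries. In consequence 1 count equalled 0.0617 to 0.0728 CPM in the parental cells and 0.0273 to 0.0364 CPM in the mutant cells. A gene was called up- or down-regulated when its level differed 3-fold or more with an adjusted p-value below 0.01 in edgeR's quasi-likelihood test. Of 14 intestinal epithelium markers, 12 were above 1 CPM in every parental library and 11 in every mutant library, and their summed level, most of it from the keratins KRT8, KRT18 and KRT19, was 57251 to 79274 CPM in the parental and 8838 to 10338 CPM in the mutant libraries. In bulk RNA, fewer cells that express a gene and less RNA of it per cell cannot be told apart. Another annotated gene averaging at least 10 counts in a group overlaps PITX1, IRX4, GBX2, PAX6, PAX8, PAX9, LHX4, IRX3 and NKX6-2. Overlapping genes with fewer reads include SIX3-AS1 at SIX3, which averaged 4.16 parental and 9.37 mutant counts. The sources used here do not say whether strand was used to separate the reads of such genes.

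Homeobox genes moved in both directions in the p85β KR-AA cells. PAX7, PAX9, SIX3, SIX4, LHX9, DLX1, MEIS1, MEIS2, IRX2, BARX1, ALX4 and POU4F1 were up-regulated, and PITX1, MSX1, IRX4, EMX1, PAX2, LHX5 and PDX1 were down-regulated. The 12 up-regulated genes were 21.1% of the 57, beside 19.6% of the 19815 protein-coding genes in the table, and the 7 down-regulated genes were 12.3%, beside 12.7%. Of all 16059 genes tested, 28.6% were called up and 17.6% down. The shares of homeobox genes called in each direction were near those of protein-coding genes in general in this fit. With length and GC content as offsets, the tested homeobox genes were compared with all genes tested only. There the shares differed, as given further on. Of the other 38 genes, 19 were tested and not called and 19 had too few counts to be tested, of which 6 (SIX6, LHX8, NKX2-5, DLX5, IRX1 and OTX2) had no count in any library. A gene without any count was not detectable at this depth, and 12.5% of protein-coding genes had none in any library.

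**Figure D1:**
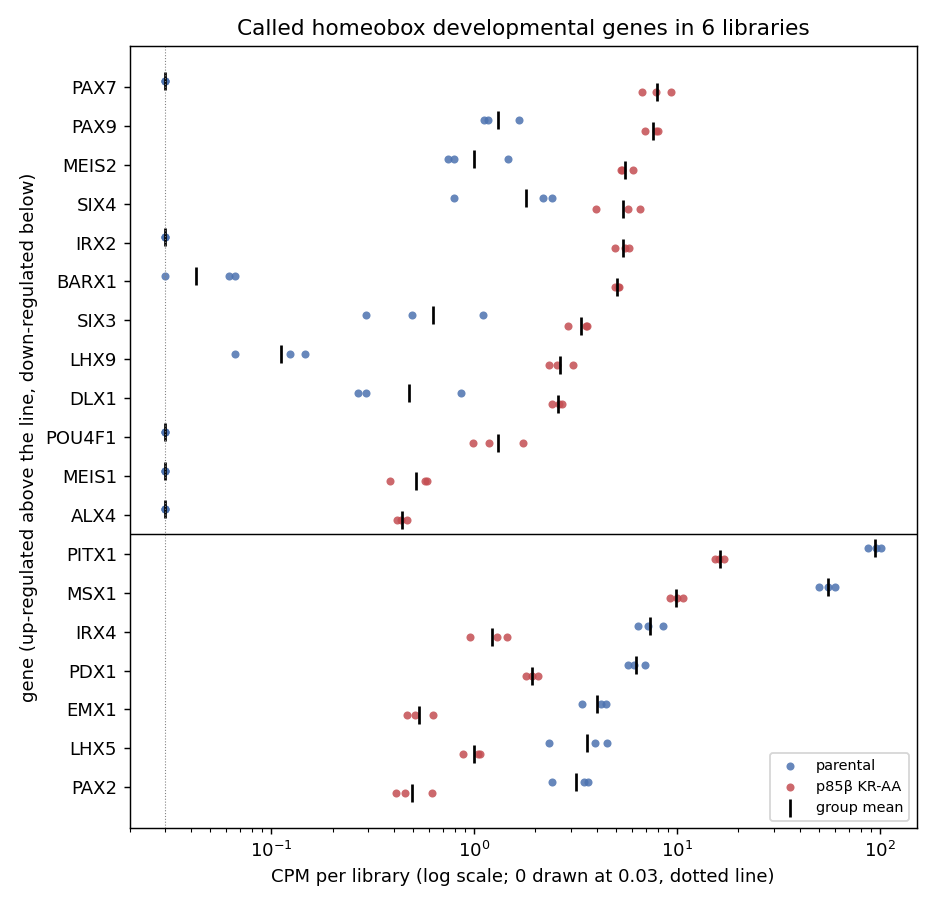
CPM of the 19 called homeobox genes on a log axis, with 1 point per library (3 parental in blue, 3 p85β KR-AA in red) and a black tick at each group mean; values of 0 are drawn at 0.03. Parental and mutant points do not overlap for any of the 12 genes above the line or the 7 below it, and 5 of the up-regulated genes have no parental count. The genes were picked by their calls on these same libraries, so the separation is no further support for the calls.

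Most up-regulated genes were low or silent in the parental cells, whereas all 7 down-regulated genes were expressed there. Of the 17 homeobox genes with no count in any parental library, 5 were up-regulated (PAX7, IRX2, POU4F1, MEIS1 and ALX4), which is 29.4%, beside 7.07% of the 4202 protein-coding genes with no parental count. Of these 17, 6 had a count in every mutant library, beside 17.0% of the 4202 protein-coding genes with no parental count. The other 11 homeobox genes had at most 2 counts in any mutant library. Of the 25 with 3 or fewer counts in every parental library, 7 were up-regulated (28.0%, beside 10.4% of such protein-coding genes). Of the 26 with at least 10 counts in every parental library, 3 were up-regulated (11.5%, beside 20.6%) and 7 down-regulated, beside 21.2% of such protein-coding genes. A gene with few parental counts passes the filter only through its mutant counts and can be called only upward. These shares carry no test. The genes were also chosen with earlier results of these data known, so the shares cannot show that such genes rise more often than others.

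Over the 38 homeobox genes tested, the median log2 fold change was 0.036, beside 0.32 over all genes tested. The mutant libraries all lay above the parental ones for 17 of them, beside 47.0% of all genes tested, and all below for 15, beside 36.5%. At an adjusted p under 0.05 with no fold threshold, 14 were higher, beside 45.9% of all genes tested, and 14 lower, beside 35.7%.

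**Figure D2:**
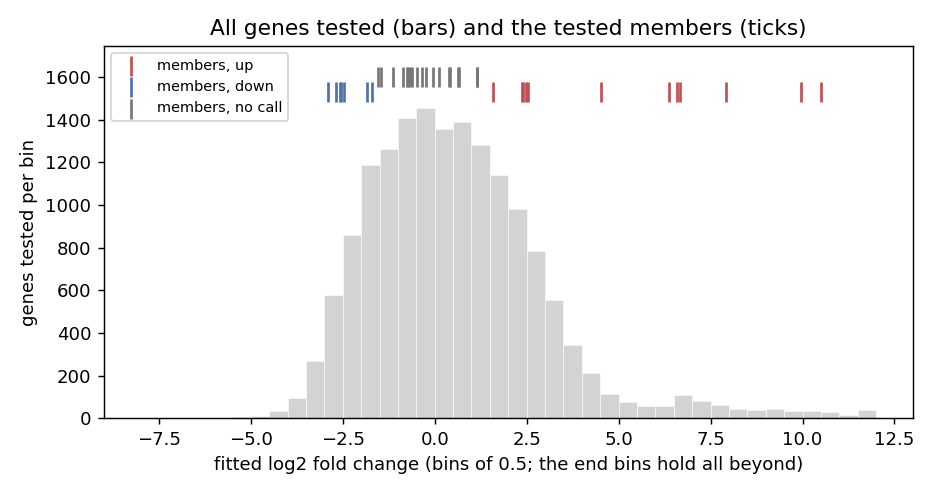
Fitted log2 fold changes (p85β KR-AA against parental) of all 16059 genes tested, as bars of genes per bin of 0.5, with a tick for each of the 38 tested homeobox genes coloured by its call. The uncalled genes and the called genes in both directions lie within the spread of the bars; ticks at the far right are genes with few or no parental counts, whose fitted value depends on the prior count and is no estimate of size.

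Among the 7 PAX genes, which encode factors with a paired DNA-binding domain, PAX7 and PAX9 were up-regulated and PAX2 was down-regulated. PAX7 (ENSG00000009709, chromosome 1, 18957340 to 19075360, plus strand; positions of genes are on GRCh37), which marks muscle satellite cells, had no count in any parental library and 287, 192 and 256 counts in those of the mutant cells. This equals 7.95 ± 1.33 CPM in the mutant cells and is at least 36.4-fold higher than the floor of 3 counts in 1 parental library (adjusted p = 6.77e-08). None of the other genes among the 57 without parental counts reached as high a level in the mutant cells. PAX9 (ENSG00000198807, chromosome 14, 37126773 to 37148567, plus strand) acts in the pharyngeal pouches and teeth, and its protein has a paired domain but no homeodomain. Its level was 1.66, 1.17 and 1.11 CPM in the parental libraries and 8.05, 7.82 and 6.90 CPM in the mutant libraries (log2 fold change 2.53, standard error 0.25, adjusted p = 8.44e-07).

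PAX2 (ENSG00000075891, chromosome 10, 102495153 to 102589701, plus strand), required for kidney and optic nerve formation, was at 3.45, 3.64 and 2.41 CPM in the parental libraries. It was at 0.409, 0.453 and 0.619 CPM in the mutant libraries (log2 fold change -2.68, standard error 0.32, adjusted p = 6.34e-06), so that every mutant library lay below every parental one. PAX2 was also the only down-regulated homeobox gene of the 7 that was still called down when gene length and GC content entered the fit as offsets (log2 fold change -1.98). PAX8, a thyroid and kidney factor, was at 4.32, 3.35 and 4.997 CPM in the parental and 5.32, 5.81 and 5.73 CPM in the mutant libraries and was not called (log2 fold change 0.41, standard error 0.22, adjusted p = 0.100). PAX6, the eye and forebrain regulator, was not called either, at 1.53, 0.583 and 0.864 CPM against 2.49, 2.50 and 1.62 CPM (log2 fold change 1.15, standard error 0.36, adjusted p = 0.0108). PAX3 and PAX5 were too low to be tested. PAX3, which acts in neural crest and muscle precursors, had no parental count and mutant counts of 40, 16 and 8. PAX5, the B cell factor, had parental counts of 2, 3 and 0 and mutant counts of 5, 6 and 5.

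The promoters of PAX7 and PAX2, which moved in opposite directions, are shown with every CG dinucleotide in capitals. Both are RefSeq sequences on GRCh38.p14, 300 bases long and spanning the gene's start, read 5′ to 3′ on the gene's strand.
PAX7 (chr1:18630596-18630895, plus strand): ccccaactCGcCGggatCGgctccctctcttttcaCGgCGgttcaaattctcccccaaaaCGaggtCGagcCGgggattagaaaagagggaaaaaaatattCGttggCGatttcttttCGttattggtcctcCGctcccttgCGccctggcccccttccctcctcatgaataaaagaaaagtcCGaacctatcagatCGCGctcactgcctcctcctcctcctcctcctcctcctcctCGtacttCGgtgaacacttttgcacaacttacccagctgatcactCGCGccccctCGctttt
PAX2 (chr10:100735146-100735445, plus strand): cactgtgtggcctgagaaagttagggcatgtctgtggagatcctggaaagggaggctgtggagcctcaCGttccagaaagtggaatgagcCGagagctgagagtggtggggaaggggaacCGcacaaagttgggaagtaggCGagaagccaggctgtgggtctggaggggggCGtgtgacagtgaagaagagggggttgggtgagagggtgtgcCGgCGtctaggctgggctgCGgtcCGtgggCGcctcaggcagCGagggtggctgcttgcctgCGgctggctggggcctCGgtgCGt
The PAX7 window held 21 CG dinucleotides and the PAX2 window 14.

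Among the 4 sine oculis genes SIX2, SIX3, SIX4 and SIX6, whose products work with EYA coactivators, SIX3 and SIX4 were up-regulated. SIX3, a factor of the anterior forebrain and eye, was at 1.10, 0.291 and 0.494 CPM in the parental and 3.60, 3.55 and 2.88 CPM in the mutant libraries (log2 fold change 2.37, standard error 0.38, adjusted p = 8.42e-05). SIX4, which acts in muscle and sensory placodes, was at 0.797, 2.18 and 2.41 CPM in the parental and 5.74, 6.56 and 3.97 CPM in the mutant libraries (log2 fold change 1.59, standard error 0.35, adjusted p = 0.000904). The SIX4 call sat at the threshold. It was lost under DESeq2 (log2 fold change 1.48) and without parental replicate 1 (1.23), mutant replicate 1 (1.56) or mutant replicate 2 (1.44), and with offsets for length and GC content the direction turned (-0.56). SIX2, a factor of nephron progenitors, was at 1.13, 0.655 and 0.679 CPM in the parental and 0.627, 0.383 and 0.510 CPM in the mutant libraries and was not called (log2 fold change -0.68, standard error 0.40, adjusted p = 0.132).

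Of the 9 LIM-homeodomain genes, LHX9 was up-regulated and LHX5 down-regulated. LHX9 (ENSG00000143355, chromosome 1, 197881032 to 197904608, plus strand), needed for gonad formation, had parental counts of 1, 2 and 2 and mutant counts of 94, 88 and 64. The ratio of its summed counts was 23.8-fold, with a 95% counting interval of 10.1 to 74.1, and the adjusted p was 7.52e-07. The fitted log2 fold change of LHX9 went from 4.51 to 1.80 with offsets for length and GC content, and the call was kept. LHX5, a forebrain gene, was at 2.32, 4.51 and 3.95 CPM in the parental and 1.06, 1.04 and 0.874 CPM in the mutant libraries (log2 fold change -1.84, standard error 0.31, adjusted p = 0.000106). LHX4, which acts in the pituitary and motor neurons, passed the p-value threshold without reaching the fold threshold, with 8.26, 7.65 and 7.04 CPM in the parental and 4.48, 5.15 and 4.29 CPM in the mutant libraries (log2 fold change -0.72, standard error 0.20, adjusted p = 0.00452). LHX2, a regulator of the cortex and eye, overlapped between the groups, at 5.58, 4.44 and 5.55 CPM against 4.86, 3.34 and 4.04 CPM (log2 fold change -0.35, standard error 0.23, adjusted p = 0.171). LHX6, a factor of cortical interneurons, was at 2.72, 1.97 and 4.50 CPM against 4.96, 4.87 and 4.52 CPM (log2 fold change 0.63, standard error 0.28, adjusted p = 0.0518). The remaining LIM genes were not tested. ISL1, a factor of motor neurons and the heart, had parental counts of 4, 8 and 4 and mutant counts of 10, 13 and 8. LHX1, which acts in the head organizer and kidney, had 0, 3 and 0 counts against 15, 9 and 11, a ratio of 5.66-fold, with a 95% counting interval of 1.78 to 28.7. LHX3, a pituitary factor, had 0, 0 and 1 counts against 7, 2 and 7.

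Of the 5 NKX genes, 2 were tested and neither was called, beside 28.6% of all genes tested called up and 17.6% down. The other 3 had too few counts to be tested. NKX2-1, the thyroid and lung factor, was at 2.72, 1.67 and 3.45 CPM in the parental and 2.40, 1.87 and 2.44 CPM in the mutant libraries (log2 fold change -0.23, standard error 0.29, adjusted p = 0.475). NKX6-1, which acts in pancreatic beta cells and the ventral spinal cord, was at 4.65, 3.64 and 4.32 CPM against 2.84, 3.27 and 2.95 CPM (log2 fold change -0.48, standard error 0.22, adjusted p = 0.0605). NKX2-2 and NKX6-2 had at most 2 counts in any library, and NKX2-5, the heart factor, had none.

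In the DLX and MSX families, DLX1 was up-regulated and MSX1 down-regulated. MSX1 (ENSG00000163132, chromosome 4, 4861392 to 4865663, plus strand), which acts in teeth, palate and limb, was among the homeobox genes with the highest level in the parental cells. Its level was 55.5, 49.9 and 59.5 CPM in the parental and 10.6, 9.19 and 9.91 CPM in the mutant libraries (log2 fold change -2.47, standard error 0.15, adjusted p = 1.77e-08). MSX2, its paralog in skull and limb, was at 31.5, 36.0 and 37.4 CPM in the parental and 18.8, 19.4 and 19.1 CPM in the mutant libraries, below the fold threshold (log2 fold change -0.87, standard error 0.15, adjusted p = 0.000115). DLX1, a gene of forebrain interneurons, was at 0.266, 0.291 and 0.864 CPM in the parental and 2.62, 2.72 and 2.40 CPM in the mutant libraries (log2 fold change 2.40, standard error 0.40, adjusted p = 0.000106). DLX2, its neighbour and partner in the forebrain, passed the p-value threshold at a smaller fold, with 0.996, 0.437 and 1.05 CPM in the parental and 1.88, 1.67 and 2.04 CPM in the mutant libraries (log2 fold change 1.15, standard error 0.35, adjusted p = 0.00856). DLX3, which acts in hair, teeth and placenta, was at 1.66, 1.46 and 1.296 CPM against 1.91, 1.64 and 2.26 CPM (log2 fold change 0.39, standard error 0.28, adjusted p = 0.213). DLX4 was at 7.31, 4.01 and 6.91 CPM against 4.04, 3.34 and 4.45 CPM (log2 fold change -0.63, standard error 0.25, adjusted p = 0.0359), and both DLX3 and DLX4 overlapped between the groups. DLX6, which patterns the jaw with DLX5, had parental counts of 1, 3 and 0 and mutant counts of 16, 8 and 2 and was not tested.

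The TALE genes, whose homeodomain holds 3 extra residues in a loop, comprised the MEIS cofactors of HOX and PBX proteins and the Iroquois genes. MEIS2 rose from 0.998 ± 0.398 to 5.55 ± 0.442 CPM, with 0.797, 1.46 and 0.740 CPM in the parental and 5.26, 6.06 and 5.32 CPM in the mutant libraries (log2 fold change 2.49, standard error 0.29, adjusted p = 4.31e-06). With offsets for length and GC content its log2 fold change was 0.50 and the call was lost. MEIS1, best known in blood stem cells, had no parental count and mutant counts of 21, 11 and 16 (adjusted p = 0.000292). That is at least 2.35-fold higher than the floor of 3 counts in 1 parental library, a bound that lies under the fold threshold. IRX3, a factor of the spinal cord and heart, was at 10.3, 9.32 and 9.68 CPM in the parental and 5.81, 5.05 and 6.60 CPM in the mutant libraries (log2 fold change -0.75, standard error 0.19, adjusted p = 0.00296). IRX5 was at 1.39, 1.238 and 1.303 CPM against 2.24, 1.57 and 2.40 CPM (log2 fold change 0.66, standard error 0.29, adjusted p = 0.0542), and neither IRX3 nor IRX5 was called.

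The Iroquois genes IRX4, IRX2 and IRX1, which lie in this order within a cluster on chromosome 5, showed 3 different patterns. IRX4 (ENSG00000113430, chromosome 5, 1877527 to 1887350, minus strand), a gene of the heart ventricle, was at 7.17, 6.41 and 8.45 CPM in the parental and 1.45, 1.29 and 0.947 CPM in the mutant libraries (log2 fold change -2.57, standard error 0.25, adjusted p = 7.59e-07). IRX2 (ENSG00000170561, chromosome 5, 2745959 to 2751791, minus strand) had no parental count and mutant counts of 202, 166 and 136, which is 5.42 ± 0.420 CPM and at least 24.8-fold higher than the floor of 3 counts in 1 parental library (adjusted p = 1.17e-07). IRX1 (ENSG00000170549, chromosome 5, 3595946 to 3601517, plus strand) had no count in any of the 6 libraries. The gaps were 858.6 kb between IRX4 and IRX2 and 844.2 kb between IRX2 and IRX1. Their promoters are shown in the same way, because 1 gene fell, 1 rose from no counts and 1 stayed without counts.
IRX4 (chr5:1886896-1887195, minus strand): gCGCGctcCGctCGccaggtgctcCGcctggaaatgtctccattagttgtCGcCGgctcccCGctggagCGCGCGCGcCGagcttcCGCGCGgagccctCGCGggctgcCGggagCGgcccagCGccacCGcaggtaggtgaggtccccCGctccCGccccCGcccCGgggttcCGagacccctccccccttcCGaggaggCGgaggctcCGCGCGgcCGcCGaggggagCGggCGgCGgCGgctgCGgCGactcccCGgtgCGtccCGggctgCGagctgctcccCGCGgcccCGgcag
IRX2 (chr5:2751628-2751927, minus strand): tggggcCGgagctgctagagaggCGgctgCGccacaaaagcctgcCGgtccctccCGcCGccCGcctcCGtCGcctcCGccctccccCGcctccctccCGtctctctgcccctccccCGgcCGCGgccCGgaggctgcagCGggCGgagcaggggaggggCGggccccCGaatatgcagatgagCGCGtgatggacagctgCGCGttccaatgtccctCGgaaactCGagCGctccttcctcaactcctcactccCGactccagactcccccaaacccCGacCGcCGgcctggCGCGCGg
IRX1 (chr5:3595582-3595881, plus strand): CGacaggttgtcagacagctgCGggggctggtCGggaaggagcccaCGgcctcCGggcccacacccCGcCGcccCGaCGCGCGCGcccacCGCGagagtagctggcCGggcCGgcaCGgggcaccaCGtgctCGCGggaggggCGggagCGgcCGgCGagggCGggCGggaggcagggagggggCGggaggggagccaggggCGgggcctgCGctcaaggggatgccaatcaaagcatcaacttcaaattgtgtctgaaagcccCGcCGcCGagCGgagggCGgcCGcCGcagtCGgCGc
All 3 windows were rich in CG dinucleotides, with 47 in IRX4, 34 in IRX2 and 38 in IRX1, beside a median of 14 over all promoters of the table.

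Promoter sequences were found for 41 of the 57 homeobox genes. Their median was 29 CG dinucleotides per 300 bases, with a range of 9 to 50, beside 14 over the 27305 promoters of the table. The median was 23 in the 9 up-regulated genes with a sequence, 33 in the 4 down-regulated genes, 29.5 in the 14 genes without a call and 27 in the 14 genes not tested. The letters TATAAA were found on either strand in 1 of the 41 windows (2.44%), beside 11.95% of all promoters. The letters TAATTA, a core motif of many homeodomain proteins that reads the same on both strands, were found in 2 of the 41 (4.88%), beside 4.98% of all promoters.

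**Figure D3:**
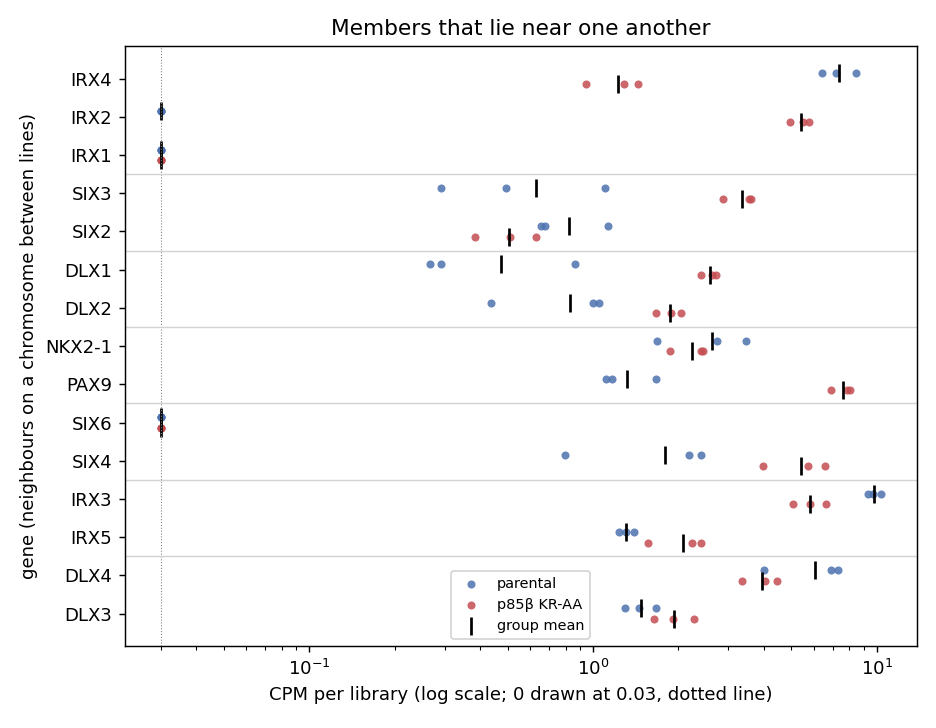
CPM per library on a log axis for homeobox genes that lie within 1000 kb of one another, with 1 point per library (parental in blue, p85β KR-AA in red), black ticks at group means and 0 drawn at 0.03. The pairs of VAX1 with EMX2 and of DLX5 with DLX6, in which neither gene was tested, are not drawn. IRX4 lay lower in every mutant library, its neighbour IRX2 was detected in the mutant libraries only, and IRX1 was at 0 throughout; SIX3 and PAX9 lay higher in every mutant library than in any parental one, while SIX2 lay slightly lower and NKX2-1 overlapped.

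Some other neighbouring pairs also differed in their calls, and others did not. Neither IRX3 nor IRX5 was called, nor was DLX3 or its neighbour DLX4. In the pairs of VAX1 with EMX2 and of DLX5 with DLX6 neither gene was tested. Unlike calls are no test of a difference between neighbours. SIX3 was up-regulated and SIX2, 59.1 kb away on chromosome 2, was not called. PAX9 was up-regulated and NKX2-1, 136.4 kb away on chromosome 14, was not called. SIX4 was called up, with the limits given above, whereas SIX6, 196.7 kb away, had no count in any library. DLX1 and DLX2, separated by 9.76 kb, both had mutant libraries above all parental libraries, and the difference between their fold changes was not tested.

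The OTX, GBX, EMX, EN and VAX genes of head, midbrain and hindbrain patterning were 8, of which 4 were tested. None of the 4 was called up and 1 was called down, beside 28.6% and 17.6% of all genes tested. Of the forebrain genes in other families, SIX3 and DLX1 were up-regulated and LHX5 was down-regulated, as given above. EMX1, a gene of the cerebral cortex, was at 4.21, 4.44 and 3.39 CPM in the parental and 0.464, 0.627 and 0.510 CPM in the mutant libraries and was down-regulated (log2 fold change -2.90, standard error 0.29, adjusted p = 1.05e-06). GBX2 and EN2, which act at the boundary of midbrain and hindbrain, passed the p-value threshold without reaching the fold threshold. GBX2 was at 1.54, 2.12 and 1.87 CPM in the parental and 0.873, 0.539 and 0.555 CPM in the mutant libraries (log2 fold change -1.47, standard error 0.34, adjusted p = 0.00144). EN2 was at 1.73, 2.48 and 1.85 CPM against 0.846, 1.11 and 0.802 CPM (log2 fold change -1.13, standard error 0.31, adjusted p = 0.00473). OTX1, a forebrain gene, overlapped between the groups at 6.31, 2.99 and 6.23 CPM against 5.70, 5.43 and 5.83 CPM (log2 fold change 0.12, standard error 0.26, adjusted p = 0.681). EMX2 and EN1 had at most 2 counts in any library, OTX2 had none, and VAX1, an optic nerve gene, had parental counts of 0, 2 and 2 and mutant counts of 4, 5 and 4.

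PITX1 (ENSG00000069011, chromosome 5, 134363424 to 134370503, minus strand), the paired-like factor that sets hindlimb identity, had the highest level of the 57 genes in the parental cells. It was at 95.3, 100.5 and 87.4 CPM in the parental and 15.4, 16.1 and 17.0 CPM in the mutant libraries (log2 fold change -2.55, standard error 0.14, adjusted p = 7.61e-09). ALX4, a skull and limb gene, had no parental count and mutant counts of 17, 12 and 12, at least 2.01-fold higher than the floor of 3 counts in 1 parental library (adjusted p = 0.000359). As for MEIS1, this bound is under 3-fold. PRRX1, a factor of limb and face mesenchyme, had at most 2 counts in any library. Of the POU genes, POU4F1, a sensory neuron factor, had no parental count and mutant counts of 64, 34 and 27, at least 5.97-fold higher (adjusted p = 2.29e-05). POU3F2, a neural progenitor factor, had at most 2 counts in any library.

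BARX1 (ENSG00000131668, chromosome 9, 96713909 to 96717637, minus strand), a gene of stomach mesenchyme, had parental counts of 1, 0 and 1 and mutant counts of 187, 148 and 135. The ratio of its summed counts was 114-fold, with a 95% counting interval of 31.4 to 943, and the adjusted p was 3.91e-08. Its fitted log2 fold change was 6.67, and 8.54 with offsets for length and GC content. PDX1, the pancreatic and duodenal factor, fell from 6.91, 6.12 and 5.74 CPM in the parental to 1.80, 2.05 and 1.93 CPM in the mutant libraries (log2 fold change -1.70, standard error 0.22, adjusted p = 1.06e-05). EVX1, a gene of the posterior embryo and spinal interneurons, stood just under the fold threshold, at 14.1, 11.0 and 11.5 CPM against 4.49, 3.86 and 4.29 CPM (log2 fold change -1.53, standard error 0.20, adjusted p = 1.07e-05). BARX2 overlapped between the groups, at 4.65, 3.13 and 4.13 CPM against 3.90, 3.38 and 4.26 CPM (log2 fold change -0.049, standard error 0.23, adjusted p = 0.849).

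**Figure D4:**
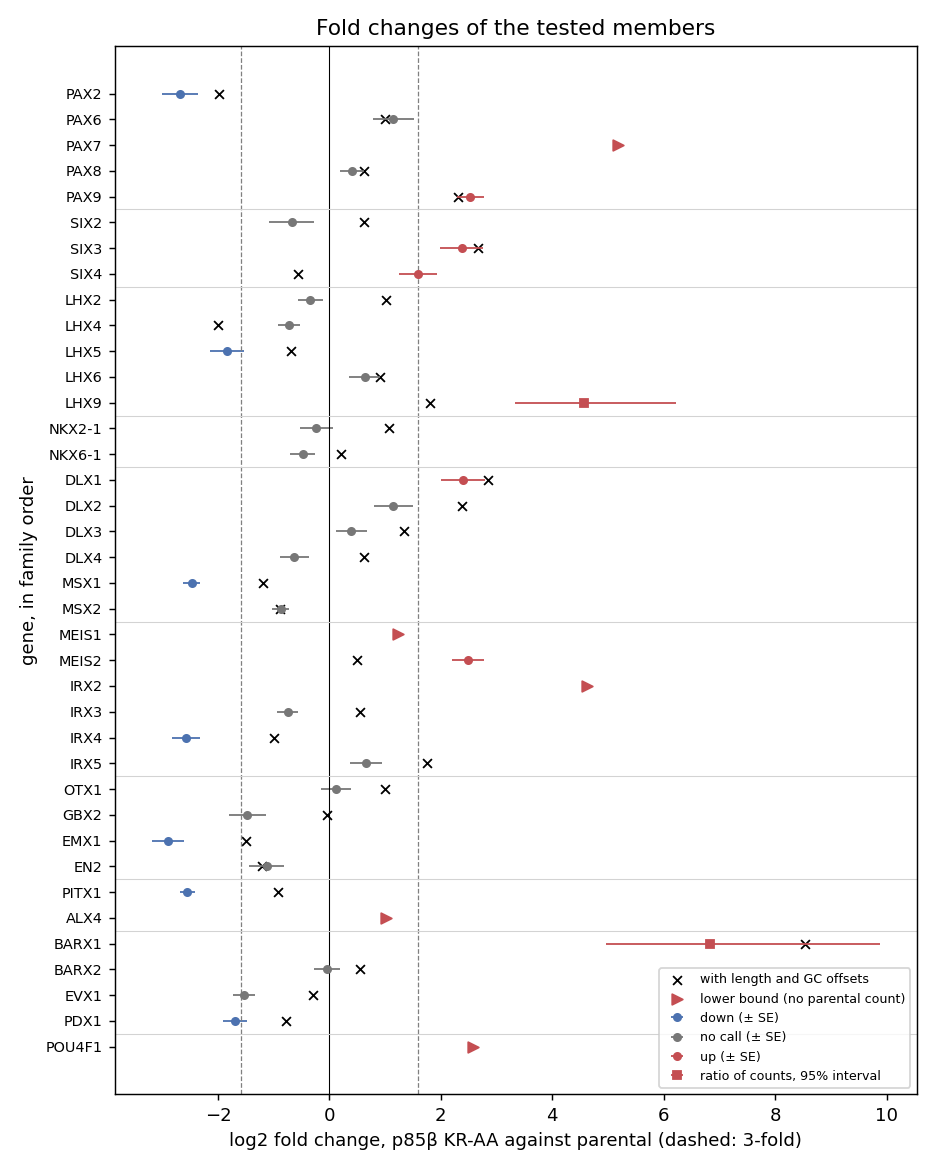
Log2 fold changes (p85β KR-AA against parental) of the 38 tested homeobox genes by family, with circles ± SE, triangles at lower bounds for genes with no parental count, squares with 95% counting intervals for genes with 1 to 3 parental counts, and dashed lines at 3-fold. Crosses give the value with gene length and GC offsets and lie nearer to 0 than the circle for all 7 down-regulated genes; bounds for MEIS1 and ALX4 lie inside the dashed lines.

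The 7 down-regulated genes kept a negative log2 fold change under every alternative, but 6 of the 7 calls were lost when gene length and GC content entered the fit. Their transcripts held 59.0% to 68.2% GC, with a median of 62.7%, beside 53.0% in the 12 up-regulated genes and 49.8% over all genes tested. With offsets for length and GC content, the log2 fold changes were -0.92 for PITX1, -1.19 for MSX1, -0.99 for IRX4, -1.50 for EMX1, -0.69 for LHX5 and -0.77 for PDX1, all under the fold threshold. The offsets also absorbed a level per library, and the median log2 fold change of all genes went from 0.32 to -0.13. The part of this shift in the calls gained or lost was not tested. With those offsets 12 of the 38 tested homeobox genes were called up, beside 13.1% of all genes tested, and 2 down, beside 11.2%. Of the 12 up-regulated genes all but MEIS2 and SIX4 kept their call. When libraries were scaled by their totals alone, which raised the median of all genes by 0.92, 14 of the 38 were called up, beside 43.9% of all genes tested, and 4 down, beside 6.06%. The up share of homeobox calls was 63.2% in the fit reported here, 77.8% with library totals and 85.7% with the offsets. Over all genes tested the up share of calls was 61.9%, 87.9% and 53.8% in the same order.

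Between genes, levels were compared per length, in transcripts-per-million (TPM), within a condition only. In the parental cells PITX1 stood at 40.1 ± 1.81 TPM, MSX1 at 28.4 ± 5.30 and MSX2 at 15.9 ± 2.26, followed by EVX1 at 4.27 ± 0.823 TPM. Below EVX1, IRX3 at 3.72 ± 0.494 and LHX2 at 3.69 ± 0.794 TPM lay within their spread of each other and of EVX1. In the mutant cells MSX2 came to the top at 22.6 ± 0.953 TPM, ahead of PITX1 at 17.9 ± 0.793 and MSX1 at 13.2 ± 0.770 TPM. PAX7 at 9.10 ± 1.27 TPM and BARX1 at 8.69 ± 0.444 TPM followed and did not differ beyond their spread, ahead of LHX2 at 7.47 ± 1.29 and PAX9 at 6.35 ± 0.633 TPM. PAX7 and BARX1, with between them no more than 1 count in any parental library, were thus among the 5 homeobox genes with the highest TPM in the mutant cells.

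Of 113 further homeobox genes in the table, 50 were tested, and 18 were up-regulated and 8 down-regulated. The 18 were 36% of those tested, beside 28.6% of all genes tested, of which 17.6% were down-regulated. ZEB2, a repressor of epithelial genes, had no parental count and mutant counts of 611, 523 and 330, at least 71.6-fold higher, and ZFHX3 (1.80 ± 0.800 to 29.4 ± 1.60 CPM), HMBOX1 (1.65 ± 0.364 to 25.4 ± 0.860 CPM) and POU2F1 (3.20 ± 0.435 to 29.2 ± 3.66 CPM) also rose. CDX2, the intestinal master regulator, fell from 347 ± 22.2 to 88.0 ± 5.18 CPM (log2 fold change -1.98, standard error 0.12, adjusted p = 1.96e-08), as did PRRX2, NKX2-8 and MEIS3, with log2 fold changes of -2.78, -2.42 and -1.59. Among 26 protein partners of homeobox factors, 19 were tested, and 7 were up-regulated (36.8% of those tested) and 4 down-regulated. EYA4, a coactivator of sine oculis proteins, had no parental count and mutant counts of 245, 188 and 108, and PBX3, a partner of MEIS proteins, and the corepressor TLE4 rose with log2 fold changes of 2.99 and 2.85. The related TLE5 and TLE2 and the LIM complex gene SSBP4 fell, with log2 fold changes of -1.92, -1.78 and -1.98. With gene length and GC offsets 12 of the further homeobox genes were called up and 3 down, and 5 and 1 of the partners. Of all genes tested, 13.1% were called up and 11.2% down with these offsets. With library totals the counts were 26 and 4 for the further genes and 9 and 0 for the partners, beside 43.9% and 6.06% of all genes.

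Of the 13 genes for PRC2 subunits, all tested, 5 were up-regulated (38.5%, beside 28.6% of all genes tested) and 1 was down-regulated (beside 17.6%). LCOR rose from 2.68 ± 0.629 to 32.9 ± 5.20 CPM. The methyltransferase gene EZH1 rose from 3.69 ± 0.764 to 23.3 ± 0.449 CPM (log2 fold change 2.65, standard error 0.20, adjusted p = 6.92e-08), SUZ12 from 6.54 ± 0.911 to 28.9 ± 8.73 CPM and JARID2 from 6.45 ± 1.11 to 27.8 ± 0.741 CPM, and EPOP fell from 65.0 ± 8.27 to 18.0 ± 0.817 CPM. EZH2 was not called, at 15.5 ± 4.03 CPM in the parental and 25.6 ± 2.74 CPM in the mutant cells (log2 fold change 0.73, standard error 0.20, adjusted p = 0.00426). With offsets for length and GC content 0 of the 13 were called up and 2 down, beside 13.1% and 11.2% of all genes tested. With library totals 9 were called up and 0 down, beside 43.9% and 6.06%. Both settings also moved the median of all genes, as given above. These are RNA levels, and neither protein levels nor histone methylation were measured in these libraries.

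Markers of other cell types were counted beside the homeobox genes. Of all genes tested, 28.6% were called up and 17.6% down. In the mesenchyme and neuron lists 10 and 5 genes were tested. Of 16 mesenchyme and fibroblast markers, 7 were up-regulated and none down-regulated, and their summed level was 113.8 to 134.4 CPM in the parental and 1996 to 2135 CPM in the mutant libraries. VIM rose from 0.803 ± 0.182 to 1772 ± 70.1 CPM, whereas PDGFRA was at 0 in every library. Of 17 neuron and neural progenitor markers, 3 were up-regulated (NCAM1, SYT1 and MAP2) and none down-regulated, and DCX, SOX1, SOX3 and ELAVL4 were at 0 in every library. The summed level of the neuron list was 542.8 to 635.4 CPM against 257.9 to 278.6 CPM, most of it from TUBB3, which was not called (561 ± 43.95 and 211 ± 11.4 CPM), while NCAM1 rose from 0.0633 ± 0.0618 to 23.4 ± 0.587 CPM. Of 14 kidney and urogenital markers, which include PAX2, PAX8 and LHX1, SALL1 was up-regulated and PAX2 down-regulated, and AQP2 and UMOD were at 0 in every library, with summed levels of 24.2 to 29.6 CPM and 19.5 to 21.2 CPM. Of 14 intestinal epithelium markers, 3 were up-regulated (CDH1, CDH17 and LGR5) and 5 down-regulated (KRT8, KRT18, KRT19, CDX2 and VIL1), beside 0 up and 3 down with gene length and GC offsets. CDH1 was at 97.3 ± 33.7 CPM in the parental and 344 ± 20.2 CPM in the mutant cells, opposite in direction to the keratins, and HNF4A was not called (19.7 ± 3.90 and 17.9 ± 0.4998 CPM). Of 8 hepatocyte and 8 blood markers none was called in this fit, and TTR was at 0 in every library. With gene length and GC offsets 1 hepatocyte and 1 blood marker were called up, beside 13.1% of all genes tested. With library totals 1 hepatocyte and 0 blood markers were called up, beside 43.9%. Hepatocyte markers summed to 42.4 to 47.1 CPM in the parental and 84.0 to 97.7 CPM in the mutant libraries, most of it from SERPINA1 (43.8 ± 2.49 and 89.9 ± 6.91 CPM). Blood markers summed to 55.5 to 72.5 and 38.8 to 47.4 CPM, most of it from CD68 (56.1 ± 5.63 and 36.5 ± 3.78 CPM). All these sums rest on the TMM scaling. Before scaling, CD68 had 746, 819 and 956 counts in the parental and 1338, 938 and 1104 counts in the mutant libraries. TUBB3 had 9144, 7649 and 8425 parental and 7504, 5860 and 6150 mutant counts. The part of the scaling in the sums was not tested. The part of these markers' cell types in the homeobox results was not tested.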

How the data were processed

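RNA-seq libraries of DLD1 parental and p85β KR-AA cells were grouped by genotype and replicate number in the labels. The deposited values are expected counts (estimated reads of each Ensembl gene without normalization), beside a gene length as another value. Per the labels, the submitters' processing notes name HISAT2 2.1.0, RSEM 1.3.1, DESeq2 1.24.0 and hg18, with no role or order, and the study's methods describe adapter and quality trimming of paired-end reads and the thresholds used here. Other settings, and the use of strand, are not given in the sources used here. Counting by an estimate can split reads between paralogs. Every column was used.

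The design assumed whole counts. The estimated counts, of which 8.78% to 14.0% of genes' values per library were not whole, were rounded. Genotypes were compared in R 4.3.3 by edgeR 4.0.16 (TMM scaling, filterByExpr keeping its limits of 10 counts and a total of 15, quasi-likelihood F test, Benjamini-Hochberg adjustment over 16059 genes), with parental cells as reference and no covariate. Standard errors came from the log2 fold change and F. The script was tested on simulated data. Alternatives were DESeq2 1.42.0, scaling by library totals, no filter, at least 10 counts in every library, a replicate block, offsets for gene length and GC content (spline with 5 degrees of freedom), a test against a fold change of 3, an adjusted p under 0.05 alone, and each library left out. The fits with no filter and with the block also used robust dispersion estimates.

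A fold against no parental count is a lower bound, computed against 3 counts in a parental library (0.218 CPM). For 1 to 3 parental counts per library the ratio of summed counts, scaled by library size, has an exact 95% interval. TPM was computed from the counts and the deposited length. Symbols, positions and GC content came from GENCODE 44 on GRCh37, since the build behind the identifiers is not settled, and promoters from RefSeq. Every one of the 57 genes is accounted for. Called genes, and genes above 1 CPM in every library of a group, are named with values. From other lists up to 4 genes per direction with the largest fold change among those averaging 1 or more in log2 CPM are named, beside markers that carry a list's sum or go against it, chosen after their values were seen, and some genes of these lists are not reported here. The members and lists were chosen with earlier results of these data known.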

Additional observations from a re-analysis of the deposited data

How the results depend on the processing

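The 12 up-regulated and 7 down-regulated homeobox genes kept their calls with the replicate number as a block (12 and 7). That fit also used robust dispersion estimates, unlike the fit reported here, so it does not test the pairing alone. Same-numbered libraries did not deviate together (correlations of -0.14, 0.12 and -0.045), and the numbers are only names. The up count was 11 with DESeq2, 14 with library totals, 13 without the filter, 12 with offsets, 9 when the fold change was tested against 3 and 14 at an adjusted p under 0.05 with no fold threshold. It was 3 with at least 10 counts in every library, a filter that by its construction drops genes silent in the parental cells. The down count was 9 with DESeq2, 4 with library totals, 7 without the filter, 6 with at least 10 counts in every library, 2 with offsets, 5 when the fold change was tested against 3 and 14 at an adjusted p under 0.05. Leaving out a library gave 11 to 14 up and 7 to 8 down, with the SIX4 call lost in 3 of these fits. DESeq2 also called EVX1 and GBX2 down, library totals called DLX2 and PAX6 up, and the offsets called DLX2 and IRX5 up and LHX4 down. Library totals lost the down calls of LHX5, MSX1 and PDX1, and the test against 3 lost the up calls of DLX1, SIX3 and SIX4 and the down calls of LHX5 and PDX1. PAX6 was called up without parental replicate 1, LHX1 up without parental replicate 2, EVX1 down without parental replicate 2 or 3, and GBX2 down without parental or mutant replicate 1.

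The median log2 fold change of the tested homeobox genes was -0.079 with DESeq2, -0.48 with at least 10 counts in every library, 0.95 with library totals, 0.68 without the filter, 0.62 with offsets, 0.070 with the block and 0.032 to 0.34 without 1 library. It has no stable sign. Directions turned for SIX4 and for genes without a call. With library totals the log2 fold changes were 0.24 for SIX2, 0.57 for LHX2, 0.21 for LHX4, 0.67 for NKX2-1, 0.44 for NKX6-1, 0.28 for DLX4, 0.050 for MSX2, 0.17 for IRX3 and 0.87 for BARX2. With offsets they were 0.62 for SIX2, -0.56 for SIX4, 1.02 for LHX2, 1.06 for NKX2-1, 0.21 for NKX6-1, 0.63 for DLX4, 0.56 for IRX3 and 0.56 for BARX2. BARX2 was at 0.15 with at least 10 counts in every library, 0.067 without parental replicate 1 and 0.044 without mutant replicate 2, and OTX1 at -0.18 without parental replicate 2. Over the fits that left out a library, BARX2 ranged from -0.22 to 0.067 and OTX1 from -0.18 to 0.27. The cause of these changes was not tested, apart from the filter named above.

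With 3 libraries per group the smallest p an exact permutation test allows is 0.1, so no such test is given for single genes. A count of 0 in a parental library allows up to 3 counts, at most 0.218 CPM. Intervals cover counting error only. Bounds cover only the counting error of the parental count, since the mutant mean enters them as it is.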

Other observations

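Annotated genes overlapped 29 of the 57 homeobox genes, and for 9 of these an overlapping gene averaged at least 10 counts in a group. Overlap was taken over whole gene spans with introns, so a pair need not share reads. Whether the counting used strand is not given in the sources used here, so how well reads of a pair were separated is not known. GBX2-AS1 averaged 228 counts in the parental and 30.1 in the mutant libraries and was down-regulated (log2 fold change -3.98, adjusted p = 3.87e-08), while GBX2 itself was not called. IRX4-AS1 averaged 21.3 and 9.67 counts and was down-regulated with IRX4 (log2 fold change -2.19, adjusted p = 0.000247). PITX1-AS1 averaged 10.01 and 71.4 counts and was up-regulated (log2 fold change 1.78, adjusted p = 0.00282), opposite to PITX1. The genes that overlapped PAX6 (ELP4), PAX8 (PAX8-AS1), PAX9 (SLC25A21), LHX4 (ACBD6), IRX3 (ENSG00000283689) and NKX6-2 (INPP5A) averaged 111, 555, 6.96, 981, 9.33 and 219 parental counts, against mutant averages of 214, 704, 16.4, 1108, 10.7 and 449 counts.

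PAX3, silent in the parental cells, had counts of 40, 16 and 8 in the mutant libraries. It failed the filter on low counts and was called up without that filter, in a fit that also used robust dispersion estimates. PAX3 was also called up when any parental replicate or mutant replicate 3 was left out, since the filter then passed it.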
